A study of Mus musculus with 2 samples.

Results

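Nuclear receptors are transcription factors that share a zinc finger DNA-binding domain and a domain that binds small fat-soluble ligands, and they turn circulating hormones, vitamins and lipids into changes of gene expression. Receptors for oestrogen, glucocorticoids, vitamin D, retinoic acid and thyroid hormone all act in cells of the osteoblast lineage, while the orphan receptors of the family work without a known hormone or are ruled by how much of them is made. Most of them bind DNA as dimers at copies of a short hexamer, the half-site, many with a retinoid X receptor as partner, and ligand exchanges corepressors for coactivators.

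The 34 nuclear receptors examined here are the family members named for this work, with Pparg left out, and every probe set annotated to exactly 1 of these symbols was taken. A probe set is the group of short oligonucleotides that reads 1 transcript on the array. Of the 34 receptors, 33 had such a probe set (all but Nr1h2), with 92 probe sets of the 34945 on the array that carry 1 gene. The receptors were read in primary osteoblasts of wild-type and Slc39a13-KO mice, with 1 Affymetrix whole-genome mouse array for each genotype. Slc39a13 encodes the zinc transporter ZIP13, and in the KO mice a neomycin cassette took the place of exons 6 to 8. Osteoblast cultures were set up from newborn skull vaults, whose cells were freed with collagenase and dispase, with the same method given for both genotypes. The later cell fractions were grown in serum-containing medium with no added agent named. The sources used here do not say how many cultures or pups each array drew on, or their sex or strain.

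With 1 array for each genotype there is no replicate check and no test, so each value below compares these 2 arrays and not the genotypes. Signals are linear intensities, and those under 85.1, the median of the pooled values, were raised to this floor. A gene was measured if at least 1 of its probe sets lay above the floor in at least 1 array, and its log2 ratio (Slc39a13-KO minus wild-type) is the mean over these probe sets. A gene is called higher or lower where this mean is at least 2-fold and all its measured probe sets have the same sign. Where a probe set was at the floor in 1 array the fold is a lower bound and is written as at least N-fold. The SD between probe sets of 1 gene, the only spread these arrays hold, had a median of 0.34 on the log2 scale. It says nothing on the spread between cultures, and it can hold differences between the transcripts that the probe sets read.

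The signal of Slc39a13 itself was 1309 in the wild-type array but 90.4 in the Slc39a13-KO array, 14.5-fold lower and near the floor. Whether its probe set lies in the removed exons was not established here. Both arrays had the same trimmed mean signal of 500.003, while the 24 poly-A spike-in control probe sets, which read RNAs added before labelling, were all lower in the Slc39a13-KO array, with a median log2 ratio of -1.02. Scaling on these controls would lift the median log2 ratio of all genes from 0.11 to 0.90. The cultures also differed in markers of other cells. All 12 chondrocyte markers were called higher in the Slc39a13-KO array, with a summed signal of 3480 (wild-type) and 141525 (Slc39a13-KO), and 6 of 10 macrophage markers were called higher, with sums of 847 and 4620. Of 10 smooth muscle and pericyte markers 7 were called lower and 1, Smtn, was called higher (449 and 1598), with sums of 79361 and 32062. Of 4 measured endothelial markers 2 were called lower, with sums of 1826 and 283, Kdr and Pecam1 being below the floor in both arrays. Adipocyte markers, 3 of 5 measured called higher, gave sums of 980 and 3189 with Adipoq below the floor in both. Pparg (floor in wild-type and 869 in Slc39a13-KO), Fabp4 (floor and 535) and Plin4 (182 and 1137) were the ones called. Lpl and Cebpa were not called, with log2 ratios of -0.39 and -0.20. Skeletal muscle markers, both measured ones called lower, gave 1147 and 658, with Ckm, Myh3, Myod1 and Myog below the floor in both. Osteoblast markers, 3 of 7 measured called higher, gave sums of 105425 and 124098, with Ibsp and Phex below the floor in both arrays. These sums were mostly Sparc, Col1a2 and Col1a1, with highest signals of 58093, 35382 and 28006, none of which was called. The called ones were Alpl (floor in wild-type and 197 in Slc39a13-KO), Dmp1 (floor and 383) and Pth1r (295 and 1534). Sp7 was near the floor in wild-type, at 94.8. Many of these markers passed the floor in 1 array only. With only probe sets above the floor in each array, 4 of 4 chondrocyte and 1 of 3 macrophage markers were called higher. Of adipocyte markers 1 of 3 and of osteoblast markers 1 of 5 were called higher, and 0 of 2 endothelial markers lower. Of 8 smooth muscle and pericyte markers 5 were called lower and 1 higher, and the 1 skeletal muscle marker left was called lower. In a bulk culture fewer cells of a type and less RNA per cell cannot be told apart, and the part of these cells in the receptor values was not tested.

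Of the 34 receptors 25 were measured, and 8 of these were called. Nr2f1, Esr1, Rarg and Nr1d2 were higher in the Slc39a13-KO array, and Nr2f2, Esrra, Vdr and Ppard were lower. The 4 higher receptors are 16% of those measured, beside 8.01% of all 12269 measured genes, and the 4 lower receptors are 16%, beside 5.93%. Counting only probe sets that passed the floor in each array left 21 receptors, with 3 called higher beside 7.47% of 10518 genes and 4 called lower beside 5.48%. The median log2 ratio of the 25 receptors was 0.23, beside 0.11 over all measured genes, and 16 receptors (64%) lay within 1.5-fold in either direction, beside 67.7% of genes. The receptors thus had called members in both directions around a median near that of the array. Ppard at -1.03 and Nr1d2 at 1.04 on the log2 scale lay just past the threshold, and Nr3c1 at 0.91 lay just short of it.

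**Figure D1:**
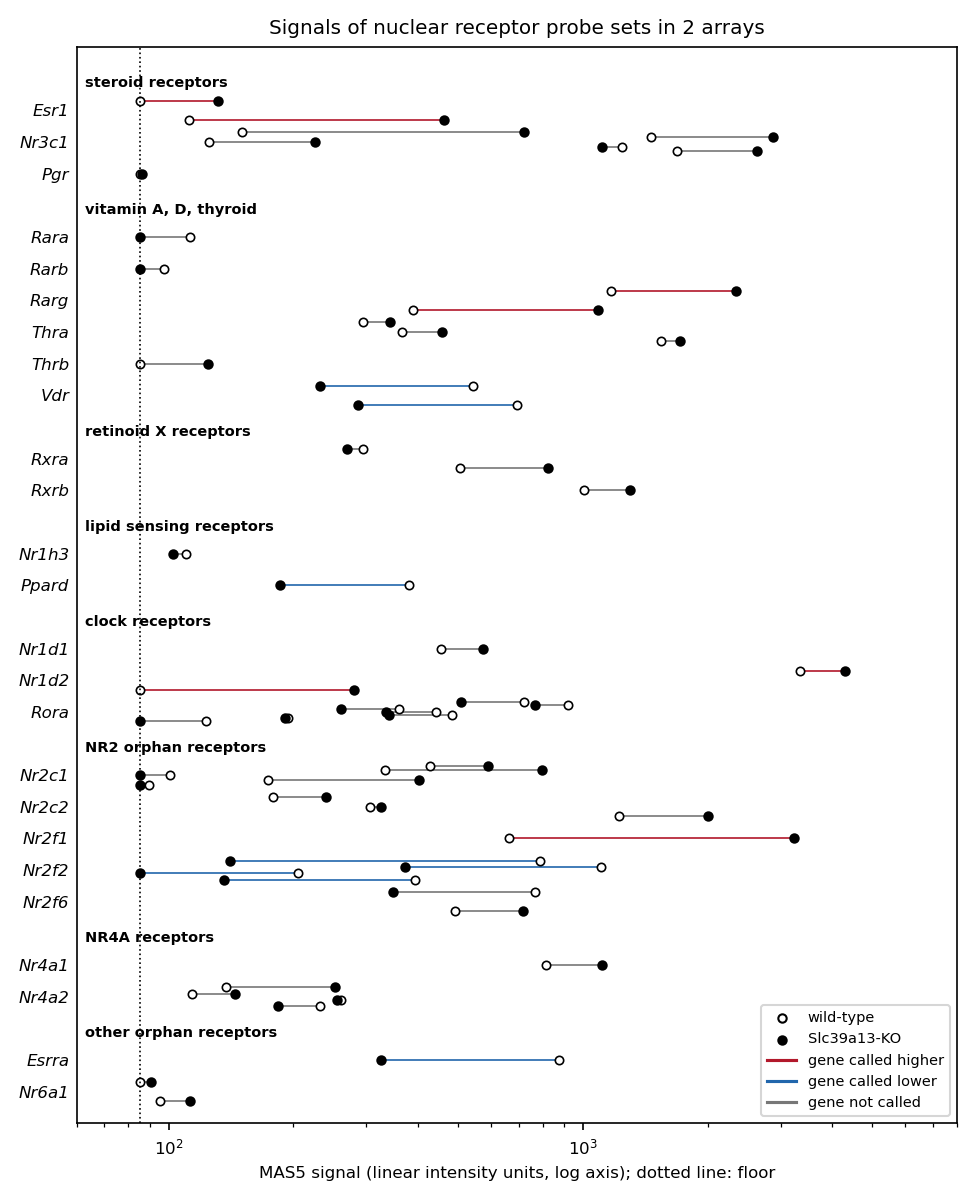
Signals of the 56 measured probe sets of 25 nuclear receptors, on a log axis, with 1 row for each gene and a line joining the wild-type array (open circle) to the Slc39a13-KO array (filled circle); signals under the floor of 85.1 are drawn at the dotted line. The probe sets of Nr2f1, Esr1, Rarg and Nr1d2 (red) lie to the right in the Slc39a13-KO array, and those of Nr2f2, Esrra, Vdr and Ppard (blue) to the left.

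The widest difference in each direction fell on 2 close relatives, Nr2f1 and Nr2f2, also called COUP-TFI and COUP-TFII, orphan receptors known for their part in the patterning of nerve tissue, heart and vessels. The DNA just upstream of their start sites is printed here with that of Vdr and Rarg, the called hormone receptors whose measured probe sets all passed the floor. Nr2f1 and Nr2f2 are shown for the size of their differences, and Vdr and Rarg because each was read by a pair of probe sets with the same sign. Each run is the 250 bases before the most upstream RefSeq start of the gene, 5′ to 3′ on the strand of the gene, in build GRCm38.p6. Nr2f1 is at chr13:78198874-78199123, Nr2f2 at chr7:70366747-70366996, Vdr at chr15:97908297-97908546 and Rarg at chr15:102257523-102257772, all on the minus strand. Capitals mark matches on either strand to 3 sets of letters, the receptor half-site AGGTCA, the Smad-binding letters CAGAC and the GC box GGGCGG.
Nr2f1: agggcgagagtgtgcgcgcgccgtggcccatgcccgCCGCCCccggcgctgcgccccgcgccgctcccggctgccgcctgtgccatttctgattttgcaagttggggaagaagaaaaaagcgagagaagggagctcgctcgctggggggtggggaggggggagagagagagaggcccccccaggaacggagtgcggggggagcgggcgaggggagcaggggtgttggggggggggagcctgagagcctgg
Nr2f2: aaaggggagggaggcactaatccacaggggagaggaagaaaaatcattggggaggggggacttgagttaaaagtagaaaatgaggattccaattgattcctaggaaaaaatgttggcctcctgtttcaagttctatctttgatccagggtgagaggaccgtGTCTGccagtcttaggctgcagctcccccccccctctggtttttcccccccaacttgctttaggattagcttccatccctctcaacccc
Vdr: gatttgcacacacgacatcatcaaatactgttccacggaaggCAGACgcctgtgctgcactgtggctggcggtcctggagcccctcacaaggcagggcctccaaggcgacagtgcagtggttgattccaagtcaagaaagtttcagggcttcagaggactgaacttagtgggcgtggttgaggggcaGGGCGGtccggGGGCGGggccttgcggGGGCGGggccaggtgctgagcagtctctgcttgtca
Rarg: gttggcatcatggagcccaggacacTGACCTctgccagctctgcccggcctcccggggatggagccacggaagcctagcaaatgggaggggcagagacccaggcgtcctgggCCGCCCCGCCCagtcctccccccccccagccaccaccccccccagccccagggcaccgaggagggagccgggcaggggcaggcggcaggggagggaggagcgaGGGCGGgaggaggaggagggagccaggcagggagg

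The 4 windows differed in base composition, with 72% G or C in Nr2f1, 50% in Nr2f2, 61.2% in Vdr and 74.4% in Rarg. Nr2f1 held 1 GC box and Nr2f2 held 1 CAGAC match, seen on the opposite strand. Vdr held 1 CAGAC match and 3 GC boxes, and Rarg held 1 half-site and 3 GC boxes, a pair of which overlap in the first run of capitals after the half-site. Among the 32 receptors with an upstream window in the RefSeq table, 5 (15.6%) held a half-site, beside 13.8% of 27025 genes. The CAGAC letters stood in 12 (37.5%) beside 42.2% of genes, and a GC box in 19 (59.4%) beside 33.0%. A half-site was found in 2 of the 4 higher receptors and 0 of the 4 lower ones, CAGAC in 2 and 3, and a GC box in 3 and 3. These matches describe letters in 1 window for each gene, and a window with no match says only that the letters are not there.

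In the NR2 group all 5 receptors were measured. Nr2f1 was read by 1 probe set, with a signal of 663 (wild-type) and 3231 (Slc39a13-KO), 4.87-fold higher (2.28 on the log2 scale). Only 166 of the 12269 measured genes had a higher ratio. Nr2f2 was read by 4 measured probe sets, and all of them were lower in the Slc39a13-KO array. From wild-type to Slc39a13-KO their signals went from 789 to 141, from 1105 to 372, from 394 to 136, and from 206 to 18.3, the last below the floor. The mean was at least 3.29-fold lower (-1.72 on the log2 scale, SD 0.53 between probe sets), and 273 genes had a lower ratio. Nr2f1 and Nr2f2 thus lay on opposite sides in the same pair of arrays. Nr2f1 was called higher under every scaling and floor tried, and Nr2f2 was called lower in each of these except poly-A scaling, where its log2 ratio was -0.85. The other orphans of the group were not called. Nr2c1 (TR2) had a mean log2 ratio of 0.52, but its 5 probe sets ran from -0.25 to 1.26 and the brightest alone would be called higher, and Nr2c2 (TR4), its closest relative, had 0.41 over 3 probe sets of 1 sign. Nr2f6 (EAR2) had 2 probe sets that disagreed, one with 766 (wild-type) and 349 (Slc39a13-KO) and the other with 492 and 718, so that its mean of -0.29 carries an SD of 1.19 and no direction. With the brightest probe set alone, and without suffixed probe sets, it was 0.55.

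Among the steroid receptors Esr1, which encodes oestrogen receptor alpha, was called higher in the Slc39a13-KO array. One probe set gave 112 (wild-type) and 461 (Slc39a13-KO), a second gave 50.2 (below the floor) and 132, and the third was below the floor in both arrays at 44.7 and 38.3. The mean of the measured pair was at least 2.53-fold higher (1.34 on the log2 scale, SD 1.00). The call was lost with a floor at the 30th or the 70th percentile and with no floor, and its wild-type signals all lay near or below the floor used here. Esr2, oestrogen receptor beta, stayed below the floor, with a highest signal of 42.2. Nr3c1, the glucocorticoid receptor, was not called. Its 5 measured probe sets gave 151 and 721, 1464 and 2874, 1688 and 2627, 125 and 226, and 1243 and 1112 in wild-type and Slc39a13-KO, so that 4 were higher and 1 was lower in the Slc39a13-KO array. The mean was 1.88-fold higher (0.91 on the log2 scale, SD 0.87), and the spread of its probe sets reached from -0.16 to 2.26. Without the probe sets whose name suffix (_s, _x or _a) says that they match several transcripts, which include the one of opposite sign, Nr3c1 was called higher (1.29), as it was with poly-A scaling (1.89). Pgr, the progesterone receptor, touched the floor with 86.2 in Slc39a13-KO, and Nr3c2, the mineralocorticoid receptor, stayed below it at 66.5 or less.

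The vitamin and thyroid hormone receptors were all measured, and the called pair had opposite signs. Vdr, the receptor for the active form of vitamin D, had signals of 692 and 287 in wild-type and Slc39a13-KO by 1 probe set and 544.5 and 232 by the other. Its mean was 2.38-fold lower (-1.25 on the log2 scale), and the probe sets differed by an SD of only 0.026. Rarg, which encodes retinoic acid receptor gamma, the form known for its role in cartilage and bone, had 1169 and 2347 by 1 probe set and 389 and 1085 by the other. It was 2.37-fold higher in the Slc39a13-KO array (1.24 on the log2 scale, SD 0.34). The Vdr call was lost with poly-A scaling (-0.28) and with the higher floor, and the Rarg call with median scaling, where its log2 ratio of 1.00 fell just short of 2-fold. The other retinoic acid receptors lay near the floor, Rara with 113 in wild-type and Rarb with 97.3, each below it in Slc39a13-KO. Thra, thyroid hormone receptor alpha, had 3 probe sets within a narrow range, with a mean log2 ratio of 0.23 (SD 0.085), which turned negative with median scaling, and Thrb was above the floor only in Slc39a13-KO, at 125.

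The retinoid X receptors, the shared dimer partners of Vdr, Rarg and Ppard, were not called. Rxrb had a signal of 1009 (wild-type) and 1297 (Slc39a13-KO), or 0.36 on the log2 scale. Rxra had a mean log2 ratio of 0.29 with probe sets of opposite sign (295 and 270 by 1, 504 and 822 by the other), and Rxrg stayed below the floor at 48.3 or less.

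Of the lipid sensing receptors Ppard, a fatty acid receptor that drives genes of fatty acid oxidation, was called lower, with 381 (wild-type) and 186 (Slc39a13-KO), 2.05-fold (-1.03 on the log2 scale). Its other probe set was below the floor in both arrays, and the call was lost with poly-A scaling (-0.06), with a 70th percentile floor and without any floor. Ppara stayed just under the floor, with a highest signal of 82.2. Nr1h3, which encodes the oxysterol receptor LXR alpha, had 110 and 103. Nr1h2, its ubiquitous relative, had no probe set of its own.

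The clock receptors Nr1d1 and Nr1d2 (REV-ERB alpha and beta) repress, and Rora activates, the core clock gene Arntl. Nr1d2 was called higher, but its probe sets were far apart in size. The brighter one gave 3352 (wild-type) and 4295 (Slc39a13-KO), or 0.36 on the log2 scale, and the other 12.1 (below the floor) and 280. The mean was at least 2.05-fold (SD 0.96), and the call was lost with median scaling (0.86) and in 3 settings that gave 0.36, namely the 70th percentile floor, the brightest probe set alone, and only probe sets that passed the floor in each array. Nr1d1, whose gene overlaps the end of Thra on the opposite strand, had 454 and 573 (0.33 on the log2 scale). Rora had 7 measured probe sets that were all lower in the Slc39a13-KO array, from -0.53 to -0.02 on the log2 scale with a mean of -0.39 (SD 0.18), a small difference of 1 sign that turned positive with poly-A scaling. Rorb stayed below the floor at 69.9 or less.

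The NR4A receptors are made within minutes of a stimulus and need no ligand. Nr4a1 (NUR77) had 815 (wild-type) and 1114 (Slc39a13-KO), or 0.45 on the log2 scale, and Nr4a2 (NURR1) had 4 probe sets from -0.33 to 0.87 with a mean of 0.22, which turned negative with median and quantile scaling, with the brightest probe set alone and without suffixed probe sets. Nr4a3 stayed below the floor, with a highest signal of 40.01. Neither measured receptor reached 2-fold.

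Of the remaining orphans Esrra, the oestrogen-related receptor alpha that works with Ppargc1a on mitochondrial genes and binds no oestrogen, was called lower. Its signal was 874 (wild-type) and 325 (Slc39a13-KO), 2.69-fold lower (-1.43 on the log2 scale), and its other probe set was below the floor in both arrays at 35.8 and 23.1. The call was lost with poly-A scaling (-0.45) and with a floor at the 30th percentile, which takes in the dim probe set. Nr6a1, a germ cell factor, had 89.97 and 101, near the floor. Nr5a2 and Nr0b1, factors of steroid-producing and early embryonic cells, stayed below it, with highest signals of 53.9 and 56.5.

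**Figure D2:**
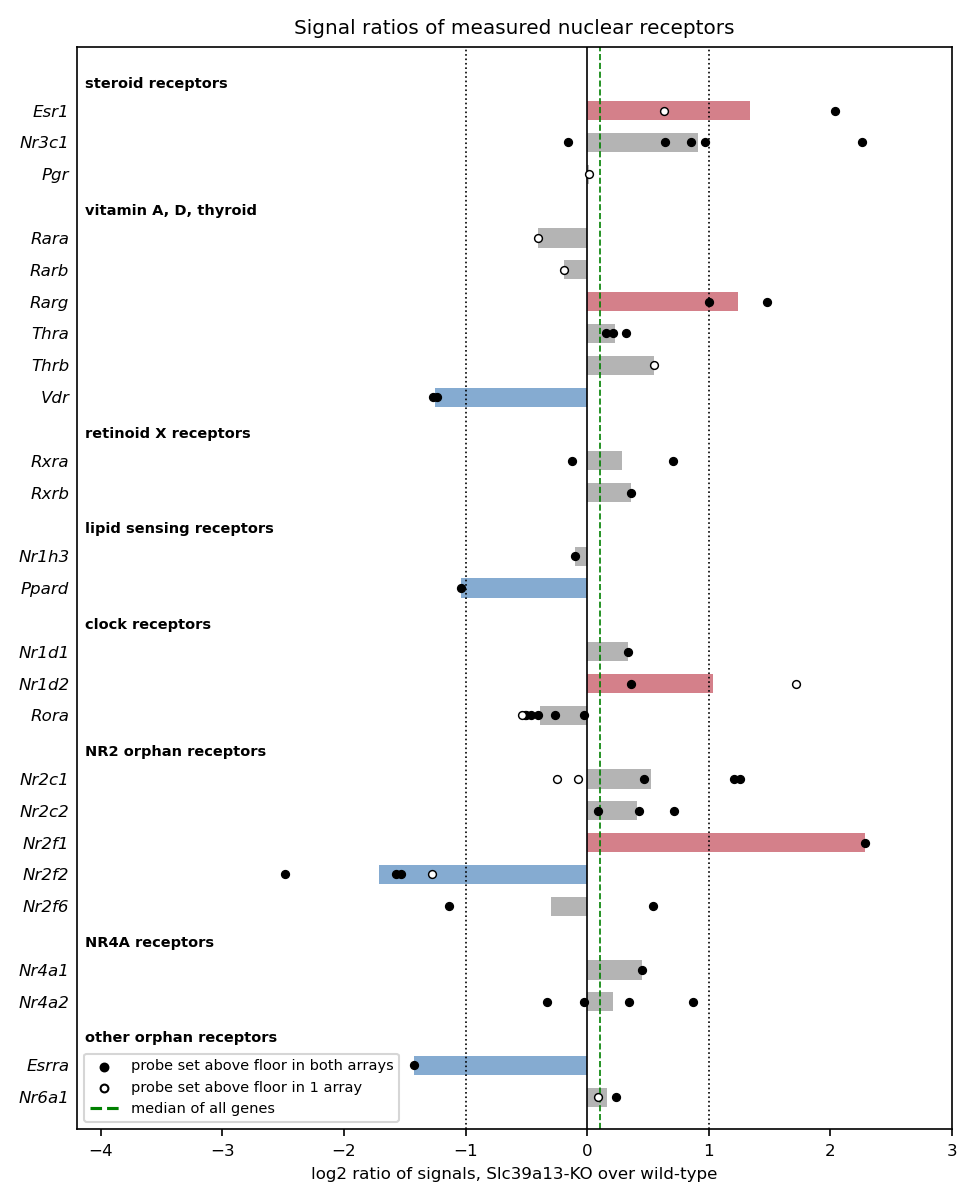
Log2 ratios (Slc39a13-KO over wild-type) of the 25 measured receptors by role, with the gene mean as a bar (red called higher, blue called lower, grey not called) and each probe set as a circle, open where only 1 array was above the floor; dotted lines mark 2-fold and the dashed line the median of all genes, 0.11. The probe sets of Vdr and Rora lie close together (SD 0.026 and 0.18), and those of Nr3c1, Nr2f6, Nr2c1, Rxra and Nr4a2 lie on both sides of 0.

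Across the roles the probe sets of 14 receptors could be compared with each other, and 9 of these had 1 sign while 5 (Nr2c1, Nr2f6, Nr3c1, Nr4a2 and Rxra) had both. The other 11 were read by 1 measured probe set, Nr2f1, Esrra and Ppard among them, and have no spread between probe sets. Of the 92 probe sets 45 passed the floor in each array, 6 only in wild-type, 5 only in Slc39a13-KO and 36 in neither. The calls of Esr1, Nr1d2 and Nr2f2 are bounds, and the remaining 5 rest on probe sets that passed the floor in each array.

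**Figure D3:**
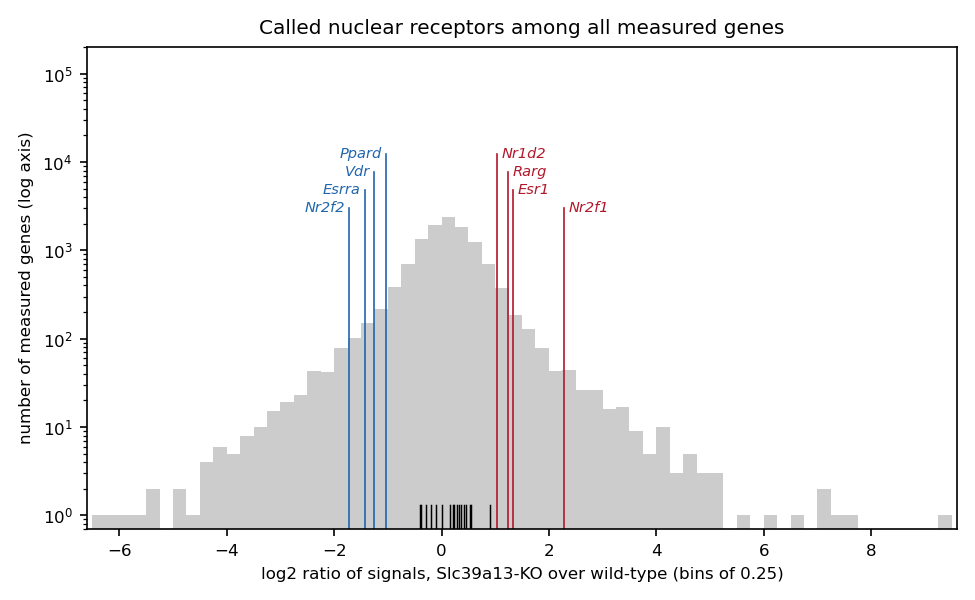
Number of measured genes (log axis) by log2 ratio in bins of 0.25 for all 12269 genes, with the 8 called receptors as labelled lines and the other 17 measured receptors as ticks on the axis. Nr2f1 at 2.28 and Nr2f2 at -1.72 lie in the flanks of the histogram, and most receptors lie in its centre.

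Genes around the receptors were taken from 13 lists of enzymes, cofactors and known target genes, so that each receptor can be read beside the genes that feed it and follow it. The counts called in these lists stand beside 8.01% of all measured genes called higher and 5.93% called lower. In such short lists 1 called gene can lie near these shares. Some target lists also hold receptors examined here, so their counts and medians are not separate from the receptor values. These are Vdr (vitamin D), Rarb (retinoic acid), Esr1, Pgr and Rara (oestrogen) and Nr1h3 (LXR). Some genes, such as Ddit4, Klf9, Cyp26b1 and Fos, stand in more than 1 list. The enzymes that make and break down receptor ligands had 4 called lower and 1 called higher of 11 measured, with a median log2 ratio of -0.26. Of the 4 lower enzymes 3 act on retinoic acid. Aldh1a1, which makes retinoic acid, had 7355 (wild-type) and 622 (Slc39a13-KO), 11.8-fold lower. Aldh1a3, which does the same, had 330 and a value below the floor, at least 3.88-fold lower, and Cyp26b1, which breaks retinoic acid down, had 1541 and 481, 3.20-fold lower. Enzymes of both making and breakdown were lower in the array in which Rarg was higher. Ch25h, which makes an oxysterol from cholesterol, had 865 and 206, 4.19-fold lower, and Cyp7b1, which breaks down such oxysterols, was at least 2.99-fold higher, with 99.2 and 297.

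Of 14 measured coactivators 0 were called in either direction (median 0.28), though 9 were called higher with poly-A scaling and 1 lower with median scaling, and of 7 measured corepressors 1, Sin3a, was called higher, with 205 (wild-type) and 434 (Slc39a13-KO) (2.12-fold, median of the list 0.58, all 7 above 0). The Sin3a call was lost with each of median, quantile and loess scaling. With poly-A scaling 6 of the 7 corepressors were called higher, in a setting that called 43.2% of all genes higher. Of 13 further nuclear receptors outside the 34, only 3 were measured, and 0 were called.

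Target genes of the called receptors were found on both sides of the threshold. Of 9 measured vitamin D targets 2 were called lower, Vdr itself and the stress gene Ddit4 (1717 and 794, 2.16-fold), and 1 was called higher, Tnfsf11, which encodes the osteoclast factor RANKL (floor and 198, at least 2.33-fold), with a median of -0.31. Cyp24a1, which inactivates vitamin D and is its classical target, was not above the floor. Of 7 measured retinoic acid targets Rarres2 (chemerin) was 4.98-fold higher (184 and 918) and Dhrs3, a retinaldehyde reductase, was 2.23-fold higher (772 and 1723), while Cyp26b1 and the binding protein Crabp2 (260 and floor, at least 3.06-fold) were lower, with a median of -0.19. As reported this list thus held 2 called genes in each direction. With quantile and with loess scaling it held 2 higher and 3 lower of 7. Probe sets above the floor in each array gave 2 higher and 1 lower of 5.

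Of 14 measured glucocorticoid targets 3 were called higher and 2 lower, with a median of 0.56. These counts became 1 and 2 with median scaling and 9 and 0 with poly-A scaling, where 43.2% of all genes were called higher. The higher ones were Glul, glutamine synthetase (390 and 856, 2.20-fold), Errfi1, an inhibitor of the EGF receptor (295 and 679, 2.30-fold), and Sult1a1, a sulfotransferase (floor and 264, at least 3.10-fold). The lower ones were Ddit4 and Klf9, a factor that thyroid hormone also induces (939 and 393, at least 2.39-fold). Of 5 measured thyroid hormone targets Klf9 was the only one called (median -0.01). Of 9 measured oestrogen targets Esr1 itself and Fos were called higher and 0 lower, with a median of 0.08 that lay below that of all genes.

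Of 11 measured LXR targets 3 were called higher and 0 lower, with a median of 0.41. They were Apoe, a lipid carrier that macrophages make in plenty (635 and 2153, 3.39-fold), Scd2, a fatty acid desaturase (831 and 2179, 2.62-fold), and Mylip, which marks the LDL receptor for destruction (750 and 1759, 2.35-fold). Macrophage markers were higher in the same array, with the limit of the floor given above. Their part in the Apoe value was not tested. Of 10 measured PPAR targets 1, the lipid droplet gene Plin2, was called lower (4769 and 1836, 2.60-fold, median -0.09). Pparg, the PPAR left out of the receptors examined here, was called higher in the same array (floor and 869, at least 10.2-fold). Its part in these values was not tested.

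Of 13 measured clock genes 0 were called (median -0.19), with log2 ratios of -0.62 for Arntl, -0.82 for Cry1, -0.75 for Ciart and 0.73 for Dbp. The immediate early genes, which respond to a stimulus as the NR4A receptors do, had 5 of 13 called higher and 1 lower, with a median of 0.83. Fos had 1494 (wild-type) and 7139 (Slc39a13-KO) (4.78-fold), Egr1 had 3488 and 11775 (3.38-fold), and Ier2, Jun and Junb were 2.52-fold, 2.33-fold and 2.28-fold higher. Fosl1, which encodes the subunit FRA1, was 4.21-fold lower (580 and 138). The rest of the list was not called, with log2 ratios of 0.88 for Egr2, 0.83 for Atf3, 0.74 for Egr3 and 0.56 for Dusp1. Fosb had 0.23, Btg2 had 0.09 and Ier3 had -0.58. The immediate early genes thus had several members past 2-fold and others short of it, and Nr4a1 and Nr4a2 lay within the range of the latter.

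**Figure D4:**
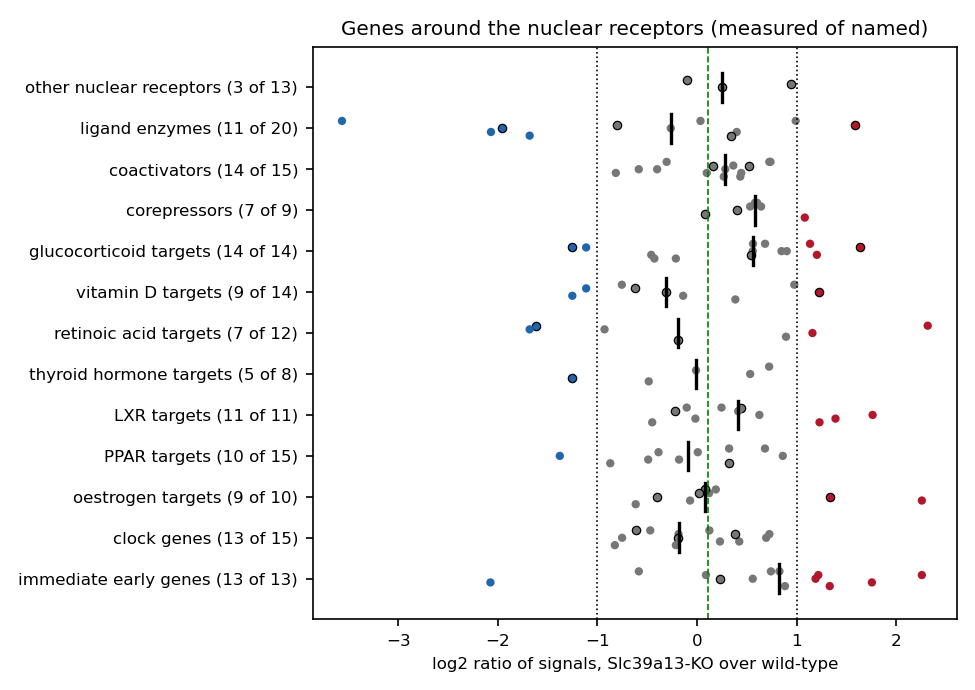
Log2 ratios (Slc39a13-KO over wild-type) of the measured genes of 13 lists, with a circle for each gene (red called higher, blue called lower, grey not called, a black edge where the value is a bound) and a black bar for the list median; dotted lines mark 2-fold and the dashed line the median of all genes, 0.11. The list medians run from -0.31 for vitamin D targets to 0.83 for immediate early genes.

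The choice of scaling moved these values, though not all by the same amount. The median log2 ratio of all genes equalled 0.11 as deposited, -0.11 after median scaling, 0 after quantile scaling, 0.03 after loess scaling and 0.90 after poly-A scaling, so the receptors are best read relative to it. Minus that median, the log2 ratio of Nr2f1 was 2.12 to 2.35 and that of Nr2f2 was -1.96 to -1.11 over the settings tried. The median of the immediate early genes minus that of all genes was 0.72 as deposited and 0.71 after poly-A scaling. The same difference was -0.29 for clock genes and -0.30 for retinoic acid targets as deposited, but 0.02 and 0.05 after poly-A scaling. Poly-A scaling called 43.2% of all genes higher and 1.85% lower, and the list counts below are to be read beside these shares. It gave 7 higher and 0 lower of 11 LXR targets, 6 and 0 of 12 clock genes and 10 and 1 of 13 immediate early genes. Ligand enzymes had 4 and 3 of 11, oestrogen targets 4 and 0 of 9, and PPAR targets 3 and 0 of 10. Vitamin D targets had 2 and 0 of 10, retinoic acid targets 3 and 1 of 6, and thyroid hormone targets 2 and 0 of 6. Median scaling called 5.34% of all genes higher and 8.60% lower. It gave 3 higher and 1 lower of the immediate early genes and 2 higher of the LXR targets. It also gave 2 lower of the PPAR targets, 1 lower of the clock genes, and 1 higher and 3 lower of the retinoic acid targets.

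**Figure D5:**
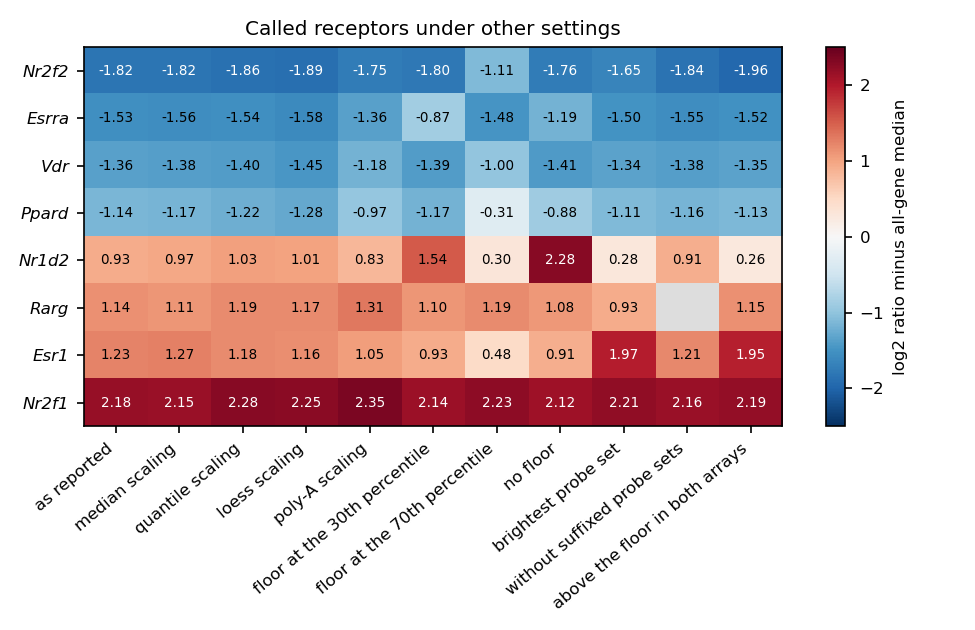
Log2 ratio minus the median of all genes (colour and number in each cell) of the 8 called receptors (vertical axis) as reported and under 10 other settings (horizontal axis), with a grey cell where Rarg had no probe set left. Nr2f2, Esrra, Vdr and Ppard are below 0 and Nr1d2, Rarg, Esr1 and Nr2f1 above 0 in every cell with a value, with the smallest sizes for Ppard and Nr1d2.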

How the data were processed

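Total RNA of wild-type and Slc39a13-KO primary osteoblasts was hybridised to 2 arrays, 1 for each genotype. The deposited values are linear signal intensities that the authors computed for each probe set, by MAS5 in the submitters' processing notes (version not given in the sources used here), while the study's methods name gcRMA for its own analysis. MAS5 scales each array to 1 target, which hides any difference in the amount of mRNA per cell.

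The arrays were put on a common trimmed mean (2% off each end), floored at the pooled 50th percentile, and log2 was taken. Control probe sets (64), those with several symbols (932) and those with none (9160) were left out, and 34741 of the 34945 probe sets with 1 symbol (99.4%) matched RefSeq of assembly GRCm38.p6 by gene ID. Calls used the 2-fold threshold of the study's methods. Python 3.11.15, numpy 2.4.6, pandas 2.3.3, scipy 1.17.1, statsmodels 0.14.6 and matplotlib 3.10.9 were used. The calling step was run on simulated data with large changes in bright genes only. That check does not cover calls near 2-fold or at the floor.

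All 34 receptors are named, and from each of 13 pathway lists the called genes, at most 6 by size of the log2 ratio. Also named, after their values were seen, were 4 clock genes, Cyp24a1 and the immediate early genes not called. A further 7 lists hold cell type markers. Members and lists were chosen with earlier results of these data known. No p-value was computed, since there is 1 array per genotype, and the number of arrays limits the precision. Alternatives were 4 other scalings, other floors (30th and 70th percentile, none), other choices of probe sets, and fold thresholds of 1.5 and 3.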

Additional observations from a re-analysis of the deposited data

How the results depend on the processing

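Relative to 4 receptors called higher and 4 lower as reported, quantile and loess scaling, the brightest probe set, leaving out suffixed probe sets, a 1.5-fold threshold and the mean fold alone each gave 4 and 4, a floor at the 30th percentile gave 5 and 4 (Esr1 and Esrra lost, Thrb, Pgr and Rarb gained), and probe sets above the floor as reported in each array gave 3 and 4. The 1.5-fold threshold called 19.4% of all genes higher and 12.1% lower, beside 16% of the 25 receptors in each direction. Quantile scaling, with 24 receptors measured, called 6.32% of genes higher and 6.98% lower, and loess scaling, also with 24, 6.48% and 6.82%. The brightest probe set (25 receptors) gave 8.73% and 7.19%, and leaving out suffixed probe sets (22) gave 8.57% and 5.99%. The 30th percentile floor (33) gave 10.3% and 6.54%. Equal counts thus stood beside unequal shares of genes. The count called higher was 2 of 24 with median scaling, beside 5.34% of all genes, and 13 of 26 with poly-A scaling, beside 43.2%. It was 2 of 18 with a floor at the 70th percentile (5.79% of genes), 7 of 33 with no floor (16.9%) and 1 of 25 with a 3-fold threshold (2.98%). The count called lower was 0 with poly-A scaling (1.85% of genes), 2 with the 70th percentile floor (5.01%) and 1 with the 3-fold threshold (2.71%). Median scaling thus split the calls 2 to 4 and poly-A scaling 13 to 0, and the shares of all genes moved the same way. The receptor median was 1.06 with poly-A scaling, where the median of all genes was 0.90, and poly-A scaling sets all genes against controls that were lower in the Slc39a13-KO array. Of the 8 calls, quantile and loess scaling kept 8, the brightest probe set 7, leaving out suffixed probe sets 7 (Rarg had none left), the 30th percentile floor, no floor and median scaling 6 each, and poly-A scaling and the 70th percentile floor 4 each. None of the 8 called ratios changed sign under any setting tried. Among the other receptors the sign turned for Nr1h3, Nr2f6, Rara and Rora with poly-A scaling, for Thra, Nr4a2 and Nr6a1 with median scaling, for Nr4a2 and Nr6a1 with quantile scaling, and for Nr2f6 and Nr4a2 with the brightest probe set and without suffixed probe sets. Receptors not called as reported were called higher without suffixed probe sets (Nr3c1, 1.29) and with the brightest probe set (Nr2c1, 1.26). Of the recomputed ratios of single receptors 187 moved by less than the SD between probe sets and 45 by more, 21 of these with poly-A scaling. For a receptor with 1 measured probe set, the median SD of all genes, 0.34, stood in for its own. Such a receptor keeps its ratio by construction where only the choice of probe sets changes. A wide SD also hides moves, as for Esr1 (SD 1.00), whose 0.53 with the 70th percentile floor counted among the 187 though its call was lost. These counts thus say little on stability. The cause was not tested for changes other than those that follow from the scaling itself. No paired analysis was possible because each genotype has 1 array. Signals near the floor, such as those of Pgr, Nr6a1, Rara, Rarb and Nr1h3, cannot be told from background here.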
